A study of Homo sapiens with 24 samples.

Results

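The same treatments were given to 2 triple-negative breast cancer lines, and the response of each gene was compared between the lines over all 24 libraries of the study. MDA-MB-231 and MDA-MB-436 are established human lines that grow without estrogen or progesterone receptor, here in DMEM with 10% fetal bovine serum. Each line was sequenced as 4 labelled groups of 3 libraries: a short hairpin RNA labelled MDM2shRNA, the non-targeting hairpin NTshRNA as its control, the MDM2 degrader YX-2-30 labelled PROTAC, and its vehicle DMSO. For each line the 6 MDM2shRNA and PROTAC libraries were pooled as treated and the 6 NTshRNA and DMSO libraries as control, with the experiment (hairpin or drug) kept as a term within the line. The quantity reported for a gene is the treated-minus-control change in MDA-MB-436 minus that in MDA-MB-231 on the log2 scale, called here the line difference. A positive line difference means that the gene went higher, or fell less, under treatment in MDA-MB-436. The labels give no dose, duration, hairpin sequence or number of clones. Nothing in them says that the 3 libraries labelled alike are separate cultures, and the p-values then measure only the spread between libraries, which may be technical.

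MDM2 is a ubiquitin ligase that marks p53 for destruction, and it also binds the related proteins p63 and p73. A PROTAC is a small molecule that holds a target protein next to a ubiquitin ligase so that the proteasome removes the target. Both lines lack working wild-type p53, so a treatment aimed at MDM2 acts in them against a background in which other partners of MDM2, such as p73, and pathways outside the p53 family can be read. A gene that passes in one line and misses the threshold in the other has not been shown to differ between them, which is why each statement on a difference rests on the test of the line difference itself.

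Totals ran from 33.4 to 174.7 M counts per library with a median of 64.0 M. Low counts piled up at 4: in each library the genes with a count of 4 numbered 1.198 to 1.636 times the mean of those with 3 and 5, the cause is not given, and with counts divided by 4 the test called 7744 line differences, 7205 of them shared with the 7749 below. ESR1 (estrogen receptor) stayed at or below 0.437 CPM (counts per M counts, after scaling) and PGR (progesterone receptor) at or below 0.517 CPM in all 24 libraries, while VIM (vimentin) was at 592.7 CPM or more in each. DCN of fibroblasts was at 0 in every library and CD3E of T cells was at or below 0.0489 CPM. Other markers of such cells were read. In MDA-MB-231 controls the leukocyte marker PTPRC was at 3.83 to 5.42 CPM and the fibroblast marker PDGFRB at 4.04 to 5.08 CPM. In MDA-MB-436 controls the leukocyte marker CD14 was at 7.97 to 14.5 CPM and the fibroblast marker FAP at 8.48 to 10.65 CPM. The PROTAC library with replicate number 3 of MDA-MB-436 was the shallowest and stood apart, with a median correlation of 0.986 with the other libraries of its arm and line, against 0.991 to 0.994 for the other 23. Libraries labelled for the hairpin and for the drug were close to each other within an arm: between PROTAC and MDM2shRNA 5 genes of 24719 passed in MDA-MB-231 (edgeR, adjusted p under 0.05; 1222 at an unadjusted p under 0.05) and 4 in MDA-MB-436 (1674 unadjusted), while DESeq2 called 87 and 97. Between DMSO and NTshRNA edgeR called 4 genes in MDA-MB-231 (1097 unadjusted) and 11 in MDA-MB-436 (3427 unadjusted), and DESeq2 called 65 and 949. Genes at 50 CPM or more in control libraries of one line and under 0.5 CPM in those of the other were read in the treated libraries of the other line, which did not choose them, at a median of 0.0298% to 0.321% of their level.

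Of 24719 genes tested, 7749 (31.3%) differed in response between the lines (edgeR quasi-likelihood test, adjusted p under 0.05). The line difference was positive in 4045 genes (16.4%) and negative in 3704 (15%), and it was at least 1 in absolute size in 2605. Within a line, 5899 genes (23.9%) changed in MDA-MB-231, 2925 up (11.8%) and 2974 down (12%), and 9958 (40.3%) changed in MDA-MB-436, 5194 up (21%) and 4764 down (19.3%). These splits depend on scaling: with library totals alone in place of TMM, 61.76% of called line differences were positive instead of 52.2%, 66.49% of calls in MDA-MB-231 were up instead of 49.58%, and 70.31% in MDA-MB-436 instead of 52.16%. That scaling moved the median change of all genes by 0.177 in MDA-MB-436 and by 0.07 in MDA-MB-231, and the directions below are relative to the TMM scale.

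The genes with a line difference fell into classes by what passed in each line. In 1308 genes (5.29% of those tested) the change passed in MDA-MB-231 only, 584 up and 724 down. In 3824 genes (15.5%) it passed in MDA-MB-436 only, 1970 up and 1854 down. Another 1126 (4.56%) changed in the same direction by unequal amounts, 853 of them more in MDA-MB-436, and 1156 (4.68%) changed in opposite directions. In the remaining 335 (1.36%) neither line passed by itself. Low expression in the other line was the exception: 1074 of the genes seen in MDA-MB-231 only and 3258 of those seen in MDA-MB-436 only had at least 1 CPM in the controls of the line that did not pass. For 767 and 2697 of these, the 95% interval of the change in the line that did not pass lay within 0.5 on either side of 0. For the others a change of that size in the line that did not pass is not excluded. A change in the same direction in both lines was found for 2584 genes, and in 1458 of them no line difference was called.

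The larger number of calls in MDA-MB-436 went with larger changes. Over the 13230 genes at a mean of at least 1 CPM in each line, the median absolute change was 0.196 in MDA-MB-231 against 0.342 in MDA-MB-436, at median SEs of 0.0919 and 0.092. The fit shared its dispersion for a gene between the lines, so the SEs cannot compare the spread within each line. Changes of at least 1 that passed numbered 457 and 1052. Across them the changes in both lines were weakly related (Pearson r = 0.209, Spearman rho = 0.243 over 13230 genes, which are not independent replicates), and over all 24719 genes tested r was 0.0541 and rho 0.124.

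**Figure D1:**
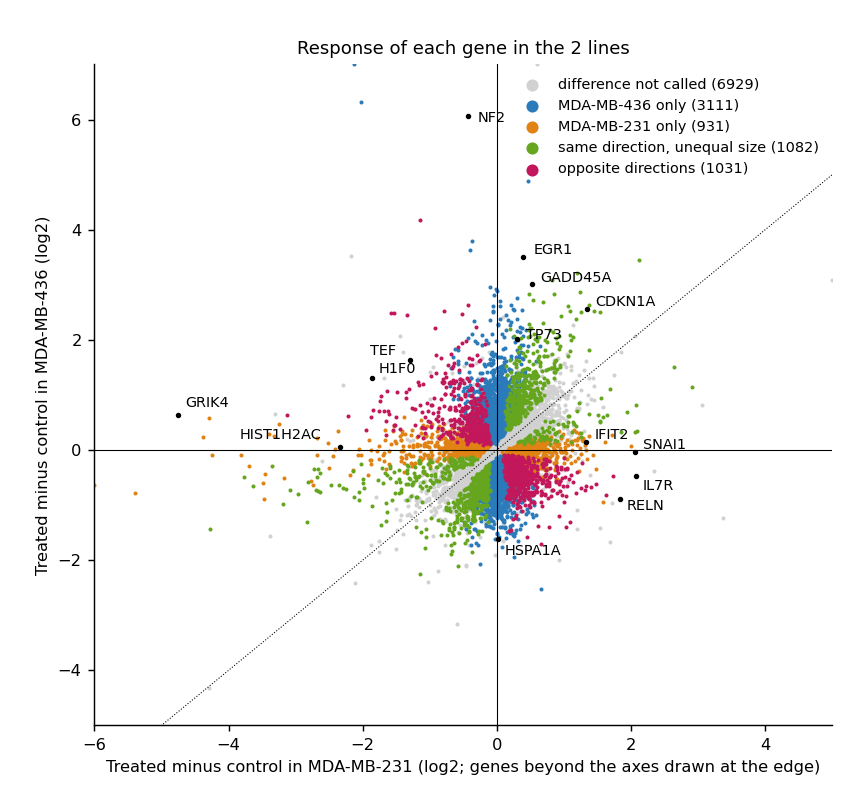
Change under treatment in MDA-MB-231 (horizontal axis, log2) against that in MDA-MB-436 (vertical axis, log2) for the 13230 genes averaging 1 CPM or more in both lines, coloured by class, with equal changes on the dotted line and 4 genes beyond the axes drawn at the edge. The 3111 genes called in MDA-MB-436 only form a vertical band, the 931 called in MDA-MB-231 only a horizontal one, and the 1031 that went in opposite directions fill the upper left and lower right corners.

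MDM2 is the target of both treatments, and a hairpin acts on its RNA while a degrader acts on protein. MDM2 RNA was not shown to be lower in the libraries labelled MDM2shRNA of either line, so this check does not bear out their label. In the libraries labelled MDM2shRNA against NTshRNA the change was 0.55 in MDA-MB-231 (adjusted p = 0.165, edgeR) against -0.12 in MDA-MB-436 (adjusted p = 0.784, edgeR). MDM2 ran from 11.5 to 24.4 CPM (median 18.5) in control and from 20.4 to 30.9 CPM (median 23.99) in treated MDA-MB-231 libraries. MDM2 in MDA-MB-436 ran from 21.5 to 40.01 CPM (median 29.7) in control and from 14.7 to 28.04 CPM (median 24.1) in treated libraries. The arms overlapped in both lines, and neither change passed by itself (0.41 ± 0.18 (SE), adjusted p = 0.104 in MDA-MB-231; -0.36 ± 0.18 (SE), adjusted p = 0.109 in MDA-MB-436; edgeR). The line difference of -0.77 ± 0.25 (SE) passed with an adjusted p of 0.02095 by edgeR. MDM2 shares exon sequence with genes on both strands. Whether counting used strand is not given, so reads of such neighbours cannot be told apart. MDM4, the partner of MDM2 that also restrains p53, varied widely within groups, as at 5.63, 72.0 and 8.58 CPM in the NTshRNA libraries of MDA-MB-231. MDM4 ran from 5.63 to 72.0 CPM in control and from 7.61 to 51.9 CPM in treated MDA-MB-231 libraries. In MDA-MB-436 it ran from 6.2 to 32.2 CPM in control and from 5.92 to 74.4 CPM in treated libraries. Its line difference of 2.47 ± 1.09 (SE) did not pass (adjusted p = 0.0935, edgeR). Without the MDA-MB-231 MDM2shRNA library with replicate number 2 the line difference of MDM4 became 3.11 and passed (adjusted p = 0.0312, edgeR).

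TP73, which encodes p73, passed in MDA-MB-436 only. TP73 ran from 11.9 to 14.5 CPM (median 12.6) in control and from 11.98 to 19.4 CPM (median 16.4) in treated MDA-MB-231 libraries. TP73 in MDA-MB-436 ran from 2.47 to 4.65 CPM (median 4.28) in control and from 11.1 to 25.9 CPM (median 13.5) in treated libraries, so every treated library of MDA-MB-436 lay above every control while the arms overlapped in MDA-MB-231. The change was 0.31 ± 0.15 (SE) in MDA-MB-231 against 2.01 ± 0.15 (SE) in MDA-MB-436, a line difference of 1.71 ± 0.21 (SE; adjusted p = 1.18e-06) by edgeR. CDKN1A encodes the CDK inhibitor p21, a classical p53-family target, and rose in both lines by unequal amounts. CDKN1A ran from 32.3 to 85.3 CPM (median 80.4) in control and from 83.1 to 214 CPM (median 201) in treated MDA-MB-231 libraries. CDKN1A in MDA-MB-436 ran from 4.53 to 7.28 CPM (median 6.42) in control and from 29.1 to 39.96 CPM (median 36.8) in treated libraries. Treated and control libraries overlapped in MDA-MB-231 and were apart in MDA-MB-436. The rise of 1.34 in MDA-MB-231 was smaller than that of 2.57 in MDA-MB-436, with a line difference of 1.23 ± 0.28 (SE; adjusted p = 0.00142) by edgeR. The level of CDKN1A in treated MDA-MB-436 libraries nevertheless stayed below the median of the MDA-MB-231 controls. TP73 and CDKN1A each overlap a gene on the other strand.

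Of the genes that changed in opposite directions, 556 fell in MDA-MB-231 and rose in MDA-MB-436. H1F0 (ENSG00000189060, chr22:37805093-37807436, plus strand, GRCh38) encodes linker histone H1.0, which accumulates in cells that have stopped dividing. H1F0 ran from 518 to 533 CPM (median 523) in control and from 139 to 146 CPM (median 144) in treated MDA-MB-231 libraries. H1F0 in MDA-MB-436 ran from 141 to 163 CPM (median 148) in control and from 304 to 403 CPM (median 376) in treated libraries. In each line all treated libraries were apart from all controls, and the line that started high became the low one. H1F0 fell by 1.87 in MDA-MB-231 and rose by 1.31 in MDA-MB-436 on the log2 scale, a line difference of 3.18 ± 0.07 (SE; adjusted p = 2.44e-18) by edgeR. TEF, a PAR bZIP transcription factor of the circadian output, started at the same level in both lines and split. TEF ran from 9.17 to 12.4 CPM (median 10.3) in control and from 3.44 to 6.03 CPM (median 3.903) in treated MDA-MB-231 libraries. TEF in MDA-MB-436 ran from 8.93 to 12.1 CPM (median 10.1) in control and from 29.98 to 33.1 CPM (median 31.8) in treated libraries. Its line difference was 2.93 ± 0.15 (SE; adjusted p = 1.73e-12) by edgeR.

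Others of this direction were lower expressed. DHRS2, a short-chain dehydrogenase, went from a median of 3.38 to 1.11 CPM in MDA-MB-231 and from 1.99 to 11.8 CPM in MDA-MB-436, a line difference of 4.07 ± 0.27 (SE; adjusted p = 1.39e-10) by edgeR. CGNL1, a protein of cell junctions, went from 3.78 to 1.29 CPM and from 16.1 to 35.3 CPM, with a line difference of 2.42. RCSD1, which encodes a regulator of actin capping protein, fell from 26.5 to 11.8 CPM in MDA-MB-231 and came up from 0.153 to 2.22 CPM in MDA-MB-436, with a line difference of 5.32. In DHRS2, CGNL1 and RCSD1 the treated libraries lay wholly below the controls in MDA-MB-231, as in 9.25% of all genes, and wholly above them in MDA-MB-436, as in 12.4%. The reverse arrangement was found in 8.93% of genes for MDA-MB-231 and 12.2% for MDA-MB-436, and arms were apart in either direction in 18.2% and 24.6%. These genes were taken as the extremes of their class, so their sizes are a description and not a sample of it. In 305 of the 1156 genes of opposite direction the smaller of the changes was at least 0.5, and in 84 it was at least 1.

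In the other direction, 600 genes rose in MDA-MB-231 and fell in MDA-MB-436. IL7R, the receptor of interleukin 7, had the smallest p-value of the genes with the largest negative line differences. IL7R ran from 5.07 to 6.43 CPM (median 5.36) in control and from 20.9 to 27.2 CPM (median 23.5) in treated MDA-MB-231 libraries. IL7R in MDA-MB-436 ran from 238 to 281 CPM (median 259) in control and from 169 to 202 CPM (median 189) in treated libraries. The arms were apart in both lines, and the line difference was -2.54 ± 0.09 (SE; adjusted p = 3.15e-15) by edgeR. RELN, a secreted glycoprotein of the extracellular matrix, rose by 1.83 and fell by 0.88 on the log2 scale (medians 2.401 to 7.89 CPM in MDA-MB-231, 6.22 to 3.23 CPM in MDA-MB-436). CPA4, a carboxypeptidase, went from 23.3 to 75.6 CPM in MDA-MB-231 and from 8.52 to 5.36 CPM in MDA-MB-436. ADM, which encodes the vasodilator adrenomedullin and is a hypoxia target, rose by 1.74 and fell by 0.48, a line difference of -2.22 ± 0.11 (SE; adjusted p = 8.38e-13) by edgeR. MMP1, interstitial collagenase, rose in MDA-MB-231 from a median of 153 to 298 CPM, while its MDA-MB-436 medians went from 2.08 to 1.02 CPM with overlapping arms (change -0.82 ± 0.20 (SE), edgeR adjusted p = 0.00176).

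**Figure D2:**
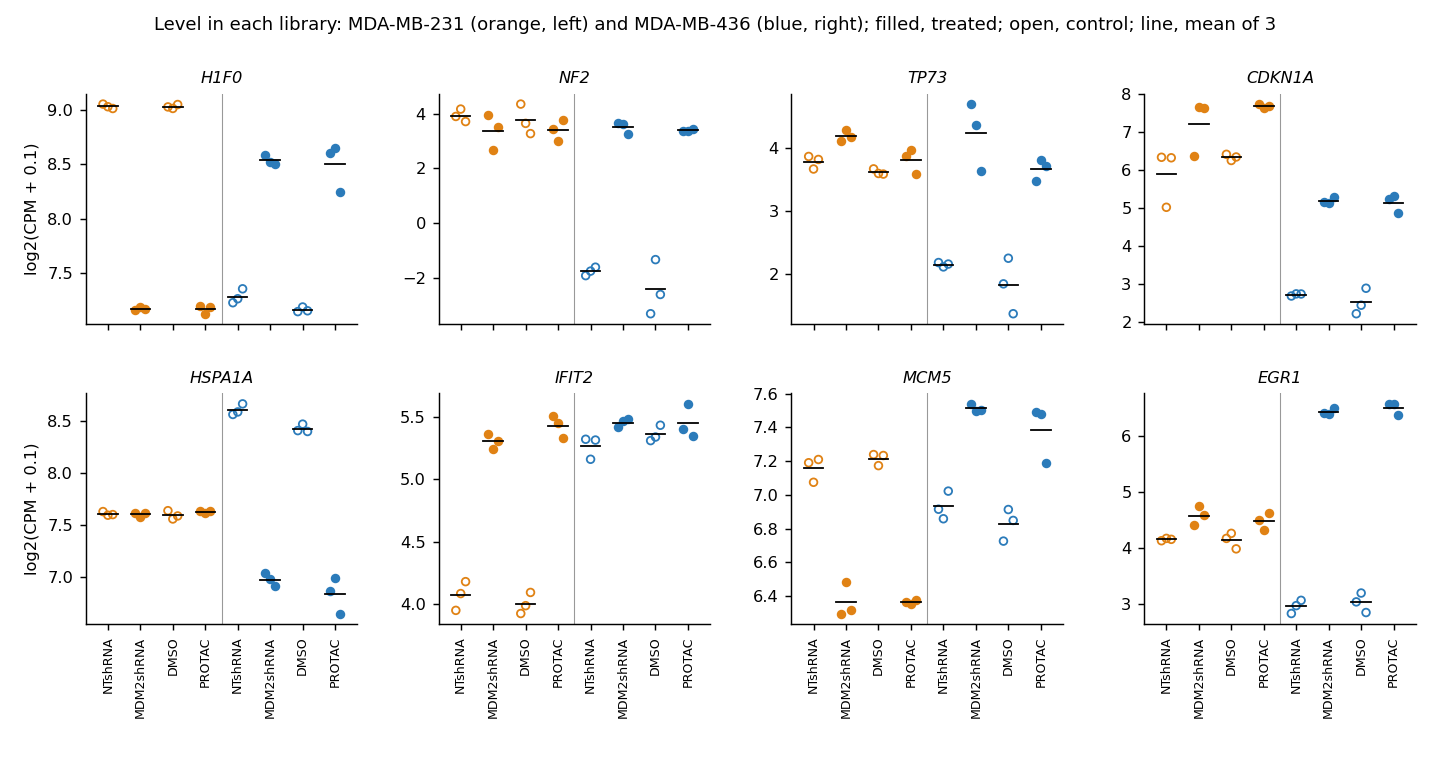
Level of 8 genes in all 24 libraries (vertical axis, log2 of CPM plus 0.1), with MDA-MB-231 in orange on the left and MDA-MB-436 in blue on the right of each panel, filled points for treated libraries, open points for controls and a line at the mean of the 3 libraries of a group. H1F0 and MCM5 cross between the lines, NF2 and TP73 rise in MDA-MB-436, HSPA1A falls in MDA-MB-436 at level values in MDA-MB-231, and IFIT2 rises in MDA-MB-231.

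Genes that moved in MDA-MB-231 while the interval in MDA-MB-436 stayed near 0 included a histone, a regulator of cell identity and receptors. HIST1H2AC, a core histone H2A gene, fell from a median of 95.5 to 19.2 CPM in MDA-MB-231 and was at 109.5 and 113 CPM in MDA-MB-436 (line difference 2.39 ± 0.09 (SE; adjusted p = 1.47e-14), edgeR). SNAI1, which encodes the EMT transcription factor Snail, rose in MDA-MB-231 and stayed below its level in MDA-MB-436. SNAI1 ran from 0.977 to 1.33 CPM (median 1.17) in control and from 4.01 to 5.37 CPM (median 4.81) in treated MDA-MB-231 libraries. SNAI1 in MDA-MB-436 ran from 5.55 to 8.58 CPM (median 7.21) in control and from 4.6 to 8.04 CPM (median 7.25) in treated libraries. Treated and control libraries were apart in MDA-MB-231 and overlapped in MDA-MB-436, with a line difference of -2.09 ± 0.18 (SE; adjusted p = 5.58e-09) by edgeR. FGFR3, a fibroblast growth factor receptor, rose from 1.87 to 6.501 CPM in MDA-MB-231 and was at 3.35 and 3.84 CPM in MDA-MB-436. DDR2, a collagen receptor kinase, fell from 2.09 to 0.413 CPM in MDA-MB-231, against 54.6 and 50.9 CPM in MDA-MB-436. SLCO3A1, STX8 and ATG10, a transporter, a syntaxin and an autophagy E2-like enzyme, fell in MDA-MB-231 by 1.88 to 2.41 on the log2 scale, with changes of 0.02, 0.18 and -0.18 in MDA-MB-436.

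Genes that passed in MDA-MB-436 only included a tumour suppressor, a laminin chain and a Wnt receptor, and they started at various levels. NF2 (ENSG00000186575, chr22:29603556-29698598, plus strand, GRCh38) encodes merlin, an upstream activator of the Hippo kinases and a tumour suppressor. NF2 ran from 9.58 to 20.4 CPM (median 13.95) in control and from 6.22 to 15.5 CPM (median 11.02) in treated MDA-MB-231 libraries. NF2 in MDA-MB-436 ran from 0 to 0.295 CPM (median 0.179) in control and from 9.41 to 12.7 CPM (median 10.5) in treated libraries. NF2 was thus almost unread in MDA-MB-436 controls and reached the level of MDA-MB-231 in every treated library. The change was 6.06 ± 0.36 (SE) in MDA-MB-436 and -0.43 ± 0.27 (SE) in MDA-MB-231 (adjusted p = 0.281), a line difference of 6.49 ± 0.45 (SE; adjusted p = 1.97e-10) by edgeR. A DMSO library of MDA-MB-436 held no NF2 count, so the fitted size depends on the prior count. LAMB3, the laminin beta 3 chain of basement membrane, rose from 18.8 to 136 CPM in MDA-MB-436 and was at 830.2 and 811 CPM in MDA-MB-231. GJB2 (connexin 26), ARHGAP24 (a Rac GTPase-activating protein), DNAH17 (an axonemal dynein chain) and FAM129A rose by 2.61 to 2.96 in MDA-MB-436, at changes of 0.05, -0.05, -0.11 and 0.05 in MDA-MB-231. SLIT2, the ligand of ROBO receptors, fell from 112 to 34.5 CPM in MDA-MB-436 against 39.96 and 41.98 CPM in MDA-MB-231. FZD2, a Wnt receptor, fell by 1.42 there, with a change of -0.06 in MDA-MB-231. The most extreme positive line differences outside these, in AC011511.4, AC010422.6 and TRIM39-RPP21, belong to read-through models that share exons with their neighbours, and their sizes are uncertain.

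The pathway lists below were read beside 31.3% of genes called overall and 47.6% of the 13230 genes at 1 CPM or more in each line, whose median line difference was -0.03. In bulk RNA, fewer cells of a kind and less RNA per cell cannot be told apart. With other scalings the sign of a list's median held for every list below except under library totals alone, where mitosis went from -0.07 to 0.02, TGF-beta genes from -0.06 to 0.03 and integrins and laminins from -0.01 to 0.08.

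**Figure D3:**
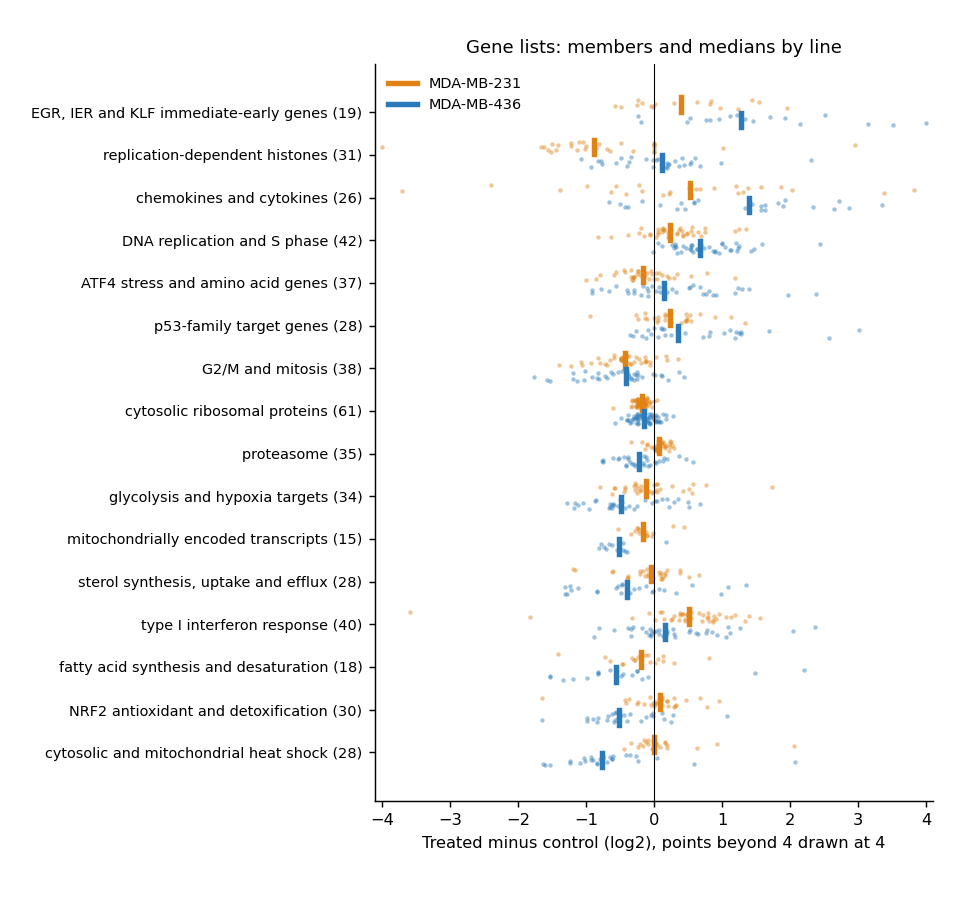
Change under treatment (horizontal axis, log2) of the members of 16 gene lists, MDA-MB-231 in orange and MDA-MB-436 in blue, with a bar at the median of each list and line and members beyond 4 drawn at 4. The heat shock bars lie at -0.0045 and -0.77, those of the replication-dependent histones at -0.88 and 0.11, and those of the EGR, IER and KLF genes at 0.39 and 1.27.

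Heat shock proteins had the largest called share of any list with at least 20 tested members. These chaperones hold and refold unfolded proteins, and their genes are driven by HSF1. Of 28 tested members 24 had a negative line difference and 0 a positive one, with a median of -0.80 against 0.05 over all genes tested. In MDA-MB-436 25 members fell and 2 rose (median -0.77), while in MDA-MB-231 5 fell and 5 rose (median -0.0045). By class, 16 members changed in MDA-MB-436 only, 5 fell in both lines by unequal amounts and 3 went in opposite directions. The members not called were TRAP1, HSF1, HSPA4L and HSPB8, and the last of these had the same change of 2.06 in both lines.

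HSPA1A (ENSG00000204389, chr6:31815464-31817946, plus strand, GRCh38), the main inducible HSP70, gives the pattern of the list. HSPA1A ran from 188 to 199 CPM (median 193) in control and from 190.0 to 198 CPM (median 196) in treated MDA-MB-231 libraries. HSPA1A in MDA-MB-436 ran from 337 to 406 CPM (median 366) in control and from 99.9 to 131 CPM (median 123) in treated libraries. The arms overlapped in MDA-MB-231 and were apart in MDA-MB-436, where the level went from above that of MDA-MB-231 to below it. The line difference was -1.63 ± 0.06 (SE; adjusted p = 8.51e-15) by edgeR, with a 95% interval of -0.07 to 0.10 for the change in MDA-MB-231. HSPA1B is a near-identical copy whose reads the counting could have split with HSPA1A, and its line difference was -1.53. HSPD1, the mitochondrial HSP60, fell by 1.23 in MDA-MB-436 at a change of -0.0038 in MDA-MB-231. HSP90AA1 and HSP90AB1, the HSP90 chaperones of signalling proteins, fell by 1.09 and 1.24 in MDA-MB-436, with changes of -0.02 and -0.23 in MDA-MB-231. DNAJA1, a J-domain partner of HSP70, rose in MDA-MB-231 and fell in MDA-MB-436. DNAJA1 ran from 460.4 to 490.1 CPM (median 468) in control and from 497 to 573 CPM (median 536) in treated MDA-MB-231 libraries. DNAJA1 in MDA-MB-436 ran from 765 to 913 CPM (median 833) in control and from 428 to 473 CPM (median 447) in treated libraries. Its changes of 0.19 and -0.90 gave a line difference of -1.08 ± 0.06 (SE; adjusted p = 1.70e-12) by edgeR.

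The promoters of HSPA1A and DNAJA1 are shown because heat shock genes are known to share an upstream element. Both are the 250 bases before the RefSeq transcription start, 5′ to 3′ on the strand of the gene, from RefSeq (GRCh38.p14), and capitals mark matches to the heat shock element GAANNTTC. The HSPA1A stretch is chr6:31815293-31815542 on the plus strand and the DNAJA1 stretch chr9:33025023-33025272 on the plus strand.
HSPA1A: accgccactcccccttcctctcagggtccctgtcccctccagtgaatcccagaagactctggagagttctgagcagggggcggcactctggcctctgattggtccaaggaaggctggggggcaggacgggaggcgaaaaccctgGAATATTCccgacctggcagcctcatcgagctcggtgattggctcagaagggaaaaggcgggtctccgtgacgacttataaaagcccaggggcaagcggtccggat
DNAJA1: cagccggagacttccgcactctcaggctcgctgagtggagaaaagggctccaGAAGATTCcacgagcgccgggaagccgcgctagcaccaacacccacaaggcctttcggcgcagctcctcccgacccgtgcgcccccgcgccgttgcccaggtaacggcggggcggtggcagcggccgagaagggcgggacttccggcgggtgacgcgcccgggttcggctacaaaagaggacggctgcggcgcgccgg
In windows of 300 bases (250 before to 50 after the start, both strands searched), this motif was found in 9 of 26 matched list promoters (34.6%) and in 1875 of 27305 promoters of the table (6.87%). Among called members it was in 8 of 23. A match is a run of letters and not a measured site.

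Proteasome genes and antioxidant genes driven by NRF2 had mostly negative line differences too. Of 35 proteasome genes 20 had a negative line difference and 2 a positive one (median -0.28). In MDA-MB-436 21 fell and 4 rose, and in MDA-MB-231 2 fell and 9 rose. PSMC6, an ATPase of the base that unfolds substrates, rose by 0.26 in MDA-MB-231 and fell by 0.77 in MDA-MB-436, and the base ATPase PSMC1 fell by 0.75 in MDA-MB-436 at a change of 0.05 in MDA-MB-231. Against this, PSMC3 and PSMD4 had positive line differences of 0.40 and 0.39. PSMC3 is another base ATPase and PSMD4 a ubiquitin receptor of the proteasome.

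Of 30 NRF2 genes 17 had a negative line difference and 2 a positive one, among them the drug exporter ABCC2 (median -0.53). In MDA-MB-436 18 fell and 2 rose, and in MDA-MB-231 6 fell and 5 rose. TXNRD1, thioredoxin reductase, fell by 1.64 in MDA-MB-436 against a change of 0.32 in MDA-MB-231 (line difference -1.96 ± 0.28 (SE; adjusted p = 8.94e-06), edgeR). NQO1, the quinone reductase, fell by 0.85 against a change of 0.00038. HMOX1, which degrades heme, went in opposite directions. HMOX1 ran from 10.1 to 11.8 CPM (median 10.9) in control and from 16.9 to 21.4 CPM (median 18.6) in treated MDA-MB-231 libraries. HMOX1 in MDA-MB-436 ran from 30.4 to 41.6 CPM (median 37.1) in control and from 17.3 to 28.9 CPM (median 25.8) in treated libraries. GCLM, the regulatory subunit of glutathione synthesis, also rose in MDA-MB-231 (0.31) and fell in MDA-MB-436 (-0.98). NFE2L2, which encodes NRF2 itself, had a line difference of -0.04 ± 0.35 (SE) that did not pass (adjusted p = 0.987, edgeR).

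Of 40 tested interferon-stimulated genes, whose products act against viruses, 20 had a negative line difference and 3 a positive one, with a median of -0.44. In MDA-MB-231 26 rose and 2 fell, and in MDA-MB-436 13 rose and 7 fell. IFIT2, an RNA-binding antiviral protein, rose in MDA-MB-231 only. IFIT2 ran from 15.1 to 18.1 CPM (median 16.3) in control and from 37.7 to 45.4 CPM (median 40.7) in treated MDA-MB-231 libraries. IFIT2 in MDA-MB-436 ran from 35.7 to 43.1 CPM (median 39.8) in control and from 40.7 to 48.6 CPM (median 43.4) in treated libraries. IFIT2 in MDA-MB-231 thus came up from below the other line to its level, with arms apart in MDA-MB-231 and overlapping in MDA-MB-436, and the line difference was -1.19 ± 0.08 (SE; adjusted p = 3.33e-10) by edgeR. IFIT1, of the same family, rose by 0.46 in MDA-MB-231 and fell by 0.88 in MDA-MB-436, and EIF2AK2, the kinase PKR that senses double-stranded RNA, rose by 0.37 and fell by 0.38. STAT2, a transcription factor of the pathway, rose by 0.48 in MDA-MB-231, with a change of 0.02 in MDA-MB-436. MX1 rose in both lines (1.05 and 0.52). IRF7 went the other way, rising by 0.88 in MDA-MB-231 and by 2.04 in MDA-MB-436. The 14 leukocyte markers summed to 38.15 to 52.53 CPM in control and 39.95 to 50.12 CPM in treated MDA-MB-231 libraries. They summed to 27.06 to 34.38 CPM in control and 47.1 to 57.37 CPM in treated MDA-MB-436 libraries, where ITGAM, an integrin of myeloid cells, went from a median of 2.08 to 20.4 CPM while CD3E was at or near 0. CD14, also of myeloid cells, fell there from a median of 11.2 to 6.29 CPM. Of the 7 leukocyte markers tested, 4 had a positive and 1 a negative line difference, and 2 did not pass. Their part in the chemokine and interferon results was not tested.

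IFIT1 and IFIT3 are shown with the interferon-stimulated response element, 2 copies of GAAA with 2 bases of any kind between them or the reverse complement of this, in capitals. Both are 250 bases before the start on the strand of the gene from RefSeq (GRCh38.p14), at chr10:89392373-89392622 on the plus strand for IFIT1 and chr10:89327747-89327996 on the plus strand for IFIT3. IFIT3 rose in MDA-MB-231 (0.70) with a change of -0.05 in MDA-MB-436.
IFIT1: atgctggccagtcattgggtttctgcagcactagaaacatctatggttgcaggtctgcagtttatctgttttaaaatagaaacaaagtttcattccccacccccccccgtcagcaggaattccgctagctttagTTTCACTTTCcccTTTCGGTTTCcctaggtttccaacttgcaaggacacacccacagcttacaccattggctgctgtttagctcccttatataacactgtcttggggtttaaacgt
IFIT3: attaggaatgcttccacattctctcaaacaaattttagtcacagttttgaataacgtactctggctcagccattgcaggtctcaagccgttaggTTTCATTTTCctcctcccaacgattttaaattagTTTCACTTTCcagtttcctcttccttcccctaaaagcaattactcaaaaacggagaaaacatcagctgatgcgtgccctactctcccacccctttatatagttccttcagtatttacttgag
The element was found in 19 of 31 matched list promoters (61.3%) and in 996 of 27305 promoters (3.65%), and in 14 of 19 called members.

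Most DNA replication genes rose in both lines. Of 42 members 26 had a positive and 3 a negative line difference, with a median of 0.48. In MDA-MB-436 39 rose and 0 fell (median 0.67), and in MDA-MB-231 27 rose and 5 fell (median 0.23). E2F2, a transcription factor that turns on S-phase genes, rose in MDA-MB-436 only. E2F2 ran from 20.4 to 23.1 CPM (median 21.8) in control and from 22.1 to 25.3 CPM (median 23.9) in treated MDA-MB-231 libraries. E2F2 in MDA-MB-436 ran from 16.8 to 18.8 CPM (median 18.4) in control and from 85.6 to 109 CPM (median 101) in treated libraries. Every treated library of MDA-MB-436 lay above every control, and the line difference was 2.31 ± 0.08 (SE; adjusted p = 2.24e-15) by edgeR. E2F1, of the same family, rose by 1.59 in MDA-MB-436 at a change of 0.11 in MDA-MB-231.

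The MCM helicase that opens replication origins was split between the lines. MCM5 ran from 135 to 151 CPM (median 147) in control and from 78.6 to 89.3 CPM (median 82.2) in treated MDA-MB-231 libraries. MCM5 in MDA-MB-436 ran from 106 to 129.9 CPM (median 118) in control and from 146 to 186 CPM (median 180.3) in treated libraries. MCM5 thus fell by 0.82 and rose by 0.57, a line difference of 1.39 ± 0.07 (SE; adjusted p = 1.78e-12) by edgeR, and MCM7 (-0.16 and 0.89), the GINS subunit GINS2 (-0.39 and 0.67) and the polymerase subunit POLA1 (-0.22 and 0.74) went the same way. MCM6 fell in MDA-MB-231 only (-0.63, against -0.02), while MCM2 rose in both lines (0.23 and 0.96). The 3 members with a negative line difference were CCNE1 (cyclin E1), RRM1 and RRM2 (ribonucleotide reductase), which rose more in MDA-MB-231: CCNE1 by 1.25 against 0.31, and RRM2 by 1.18 against 0.43.

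The promoters of E2F1 and E2F2 are shown because E2F genes carry sites for their own family. Capitals mark the E2F site, searched as TTTCCCGC or TTTGGCGC on both strands, in the 250 bases before the start on the strand of the gene from RefSeq (GRCh38.p14), chr20:33686386-33686635 on the minus strand for E2F1 and chr1:23531234-23531483 on the minus strand for E2F2.
E2F1: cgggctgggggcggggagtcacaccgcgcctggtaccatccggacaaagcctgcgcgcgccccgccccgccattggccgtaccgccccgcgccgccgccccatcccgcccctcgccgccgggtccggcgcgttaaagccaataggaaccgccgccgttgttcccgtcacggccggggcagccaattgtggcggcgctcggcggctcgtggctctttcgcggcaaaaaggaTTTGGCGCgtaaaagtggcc
E2F2: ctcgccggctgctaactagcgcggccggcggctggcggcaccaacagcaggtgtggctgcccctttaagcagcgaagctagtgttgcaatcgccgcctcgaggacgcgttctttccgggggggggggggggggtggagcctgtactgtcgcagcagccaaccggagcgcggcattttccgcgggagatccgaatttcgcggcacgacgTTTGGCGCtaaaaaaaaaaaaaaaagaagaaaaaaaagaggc
The site was found in 19 of 36 matched promoters of the replication list (52.8%) and in 631 of 27305 promoters (2.31%), and in 15 of 27 called members.

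Upstream of E2F, the pocket proteins that restrain it were also unequal. RB1, which encodes the retinoblastoma protein, was low in MDA-MB-436 and rose there. RB1 ran from 94.8 to 106 CPM (median 96.7) in control and from 102 to 119 CPM (median 113) in treated MDA-MB-231 libraries. RB1 in MDA-MB-436 ran from 6.64 to 10.7 CPM (median 8.54) in control and from 20.5 to 31.9 CPM (median 22.6) in treated libraries. Its line difference was 1.28 ± 0.11 (SE; adjusted p = 7.90e-09) by edgeR. RBL1 (p107) rose by 1.31 in MDA-MB-436 against a change of -0.03 in MDA-MB-231, and RBL2 (p130) fell by 0.74 in MDA-MB-436 against -0.04. Of 24 genes of homologous recombination and the S-phase checkpoint, 9 had a positive and 2 a negative line difference (median 0.19), with EXO1 nuclease rising by 0.86 and 1.62. Most mitosis genes fell in both lines, 28 of 38 in MDA-MB-231 against 30 in MDA-MB-436, and their line differences were split, 6 positive and 13 negative. The called shares of the recombination and mitosis lists, 45.83% and 50%, lay near the 47.6% of expressed genes. BUB1, a spindle checkpoint kinase, fell more in MDA-MB-436 (-0.35 and -1.20), whereas TPX2 and NEK2, a spindle factor and a centrosome kinase, fell in MDA-MB-231 only (-0.49 and -0.65, against -0.02 and 0.10).

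Of 31 tested replication-dependent histones, whose RNAs are made in S phase, 14 had a positive line difference (9 at an adjusted p of 0.01), 0 a negative one, and 17 did not pass (median 0.86). The called share of 45.16% lay near the 47.6% of expressed genes. In MDA-MB-231 13 fell and 0 rose (median -0.88), and in MDA-MB-436 5 rose and 1 fell (median 0.11). HIST1H2BK and HIST1H1C, a core H2B and a linker histone, fell by 1.67 and 1.52 in MDA-MB-231, with changes of 0.18 and 0.17 in MDA-MB-436. HIST1H2BJ fell in MDA-MB-231 (-0.86) and rose in MDA-MB-436 (0.98). Members of this family are similar in sequence and most of their RNAs lack a poly(A) tail, and the selection used for the libraries is not stated, so the levels may not stand for all histone RNA.

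Immediate-early genes answer growth factor and stress signals within minutes. Of 19 tested EGR, IER and KLF genes 12 had a positive and 1, NR4A1, a negative line difference (median 1.04). EGR1, a zinc finger factor of the ERK pathway, rose in both lines. EGR1 ran from 15.7 to 19.1 CPM (median 17.8) in control and from 19.8 to 26.7 CPM (median 23.3) in treated MDA-MB-231 libraries. EGR1 in MDA-MB-436 ran from 6.97 to 9.02 CPM (median 7.88) in control and from 83.03 to 95.9 CPM (median 88.4) in treated libraries. The level of EGR1 in MDA-MB-436 went from below to far above that of MDA-MB-231, a line difference of 3.12 ± 0.11 (SE; adjusted p = 3.15e-15) by edgeR. KLF10, a TGF-beta inducible repressor, fell by 0.18 in MDA-MB-231 and rose by 1.92 in MDA-MB-436, and KLF2 did likewise (-0.57 and 1.45). Among 22 genes of MAP kinase feedback, 12 line differences were positive and 4 negative, with the ERK phosphatase DUSP6 and the ERK inhibitor SPRY4 falling in MDA-MB-231 (-0.29 and -0.83) and rising in MDA-MB-436 (1.72 and 0.25), while DUSP1 rose more in MDA-MB-231 (1.69 against 1.11).

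Of 26 tested chemokines and cytokines 10 had a positive and 4 a negative line difference (median 0.84, 53.85% called against 47.6% of expressed genes). The neutrophil chemokine CXCL8 rose in both lines. CXCL8 ran from 5.87 to 8.89 CPM (median 7.86) in control and from 16.3 to 20.9 CPM (median 17.1) in treated MDA-MB-231 libraries. CXCL8 in MDA-MB-436 ran from 109 to 129.9 CPM (median 122) in control and from 783 to 989 CPM (median 886) in treated libraries. Its line difference was 1.63 ± 0.11 (SE; adjusted p = 2.06e-10) by edgeR, and CXCL3 and CXCL2 rose in MDA-MB-436 only (2.64 and 1.62, against 0.22 and 0.13). The 4 negative members were CXCL16, IL1A, IL1B and IL32, and IL1B, interleukin 1 beta, rose by 0.62 in MDA-MB-231 and fell by 0.50 in MDA-MB-436. NF-kB genes were mixed, with 6 positive and 3 negative of 17 (52.94% called). TRAF1, RELB and the inhibitor TNFAIP3 rose more in MDA-MB-436 (line differences 1.56, 0.93 and 0.96), and ICAM1, an adhesion molecule, rose more in MDA-MB-231 (1.11 against 0.15).

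ATF4 target genes of the amino acid response were higher by line difference in 20 of 37 members and lower in 7 (median 0.41). In MDA-MB-231 16 fell and 2 rose, and in MDA-MB-436 19 rose and 10 fell. ASNS, asparagine synthetase, fell in MDA-MB-231 and rose in MDA-MB-436. ASNS ran from 57.9 to 64.1 CPM (median 58.6) in control and from 28.7 to 38.02 CPM (median 32.5) in treated MDA-MB-231 libraries. ASNS in MDA-MB-436 ran from 83.96 to 93.5 CPM (median 84.95) in control and from 135 to 163 CPM (median 146) in treated libraries. Its line difference was 1.62 ± 0.08 (SE; adjusted p = 8.88e-13) by edgeR. The tRNA ligases AARS, CARS, GARS and SARS went the same way, with falls of 0.24 to 0.44 in MDA-MB-231 and rises of 0.14 to 0.67 in MDA-MB-436, as did the C/EBP partner CEBPG (-0.29 and 1.19). DDIT3, the stress factor CHOP, rose by 1.97 in MDA-MB-436 only. The members ATF5, SLC38A2, SLC7A11 and CEBPB fell in MDA-MB-436 only (-0.91, -0.79, -0.41 and -0.30), and ATF4 itself had a line difference of 0.22 ± 0.09 (SE) that did not pass (adjusted p = 0.0601, edgeR).

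Of 28 sterol genes 11 had a negative and 5 a positive line difference (median -0.43), and 17 fell in MDA-MB-436 against 7 in MDA-MB-231. HMGCS1, the HMG-CoA synthase of cholesterol synthesis, fell by 1.28 in MDA-MB-436 at a change of 0.09 in MDA-MB-231 (line difference -1.38 ± 0.16 (SE; adjusted p = 4.34e-07), edgeR), and MSMO1 of the same pathway gave a line difference of -1.38. MVK and PMVK, its mevalonate kinases, ran against this, falling in MDA-MB-231 (-0.38 and -0.40) and rising in MDA-MB-436 (0.99 and 0.32). The sterol regulatory element TCACNCCAC was found in 1 of 21 matched list promoters (4.76%), against 313 of 27305 (1.15%), and in 0 of 10 called ones. Of 18 fatty acid genes 11 were lower and 1, ELOVL7, was higher (median -0.51), with the desaturases FADS2 and SCD falling in both lines and more in MDA-MB-436 (-1.53 and -1.54 against -0.29 and -0.65).

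Of 34 glycolysis and hypoxia targets 17 had a negative and 5 a positive line difference (median -0.35). HK1, hexokinase, fell by 1.18 in MDA-MB-436 with a change of -0.03 in MDA-MB-231, and LDHA, lactate dehydrogenase, fell in both (-0.57 and -1.17). VEGFA, the angiogenic factor, reversed this, falling in MDA-MB-231 (-0.80) and rising in MDA-MB-436 (0.29). Of 15 mitochondrially encoded transcripts 12 had a negative line difference and 0 a positive one (median -0.40), among them MT-ND5 of complex I, which fell by 0.81 in MDA-MB-436 at a change of -0.01 in MDA-MB-231. The share of counts on mitochondrial transcripts went from 6.78% to 7.26% in controls to 5.47% to 5.5% in treated MDA-MB-436 libraries, and from 5.43% to 5.92% to 5.4% to 5.65% in MDA-MB-231. That share is also a measure of RNA quality, and its part in other results was not tested. Of 45 nuclear subunits of oxidative phosphorylation 12 were lower and 4 higher by line difference, and 29 did not pass, so that the called share of 35.56% lay below the 47.6% of expressed genes. Cytosolic ribosomal proteins had the smallest called share of the 46 lists, 22.95% of 61, below the 31.3% over all genes.

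Of 28 p53-family targets 15 rose in each line, yet the line difference was positive in 12 and negative in 8 (median 0.20). GADD45A, which binds PCNA and p21 after stress, rose in both lines. GADD45A ran from 36.4 to 41.98 CPM (median 38.2) in control and from 51.1 to 68.9 CPM (median 54.04) in treated MDA-MB-231 libraries. GADD45A in MDA-MB-436 ran from 108 to 130.3 CPM (median 115) in control and from 839 to 1029 CPM (median 927) in treated libraries. Its line difference was 2.49 ± 0.09 (SE; adjusted p = 8.31e-15) by edgeR. FAS, the death receptor, and DDB2 and AEN, a DNA damage sensor and a nuclease, rose in MDA-MB-436 only (1.24, 1.27 and 1.28). PHLDA3, FDXR, POLH, SESN1, TNFRSF10A and TP53INP1 rose in MDA-MB-231 only, by 0.24 to 0.48. Among 20 pro-apoptotic BCL-2 genes and caspases 3 were higher and 6 lower, a called share of 45% that lay near the 47.6% of expressed genes. The initiator caspase CASP8 rose in MDA-MB-231 only (0.55, against 0.14), and CASP6 rose there (0.22) and fell in MDA-MB-436 (-0.60). BBC3, which encodes PUMA, rose in both and more in MDA-MB-436 (0.42 and 1.26). Among 10 survival genes (BCL-2 relatives and other inhibitors of apoptosis) 2 were higher and 1 lower, and 7 did not pass. Their called share of 30% lay below the 47.6% of expressed genes. BCL2, a survival factor among the higher ones, had a line difference of 1.17 ± 0.12 (SE; adjusted p = 1.24e-07) by edgeR, with changes of -0.25 and 0.92.

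Of 23 tested long noncoding RNAs, listed as abundant or linked to stress, 11 were higher and 4 lower by line difference (median 0.39), and 8 did not pass. GAS5, ZFAS1 and SNHG8 fell in MDA-MB-231 (-0.37, -0.24 and -0.39) and rose in MDA-MB-436 (1.54, 1.63 and 1.09), and SNHG12 and SNHG1 rose in MDA-MB-436 only (2.52 and 1.10). SNHG15, EPB41L4A-AS1 and PVT1 also rose in MDA-MB-436 only (1.29, 1.42 and 0.94). SNHG5 fell in MDA-MB-231 (-0.32) and rose in MDA-MB-436 (0.42), while NEAT1 and CYTOR fell in MDA-MB-231 only (-0.32 and -0.34). The 4 members with a negative line difference were TUG1, NORAD, H19 and LUCAT1 (-0.26, -0.60, -1.31 and -1.68). Several of these overlap neighbours in exon sequence, and no member with a positive line difference remains when such genes are left out. Some matrix and signalling lists had more negative line differences, and others were divided within themselves. Mesenchymal genes were higher in 5 and lower in 9 of 20 (70% called), and YAP and Hippo genes in 6 and 10 of 24 (66.67%). Metalloproteinases, TIMPs and LOX genes were higher in 4 and lower in 8 of 20 (60%), and EGFR family genes in 3 and 6 of 12 (75%). Collagens were higher in 6 and lower in 6 of 19 (63.16%), and ID and BMP genes in 6 and 4 of 23 (43.48%). Of 26 integrin and laminin genes 6 were higher and 7 lower (50% called), and of 23 TGF-beta genes 8 were higher and 8 lower (69.57% called). LAMA3, the laminin alpha 3 chain, fell by 0.99 in MDA-MB-231 and rose by 1.35 in MDA-MB-436. The 10 fibroblast markers summed to 24.29 to 29.14 CPM in control and 44.63 to 49.08 CPM in treated MDA-MB-231 libraries. In MDA-MB-436 they summed to 117.5 to 139.2 CPM in control and 104 to 130.8 CPM in treated libraries. DCN was at 0 in every library, while PDGFRB went from a median of 4.42 to 7.73 CPM in MDA-MB-231. The part of fibroblast markers in the matrix results was not tested. TGFB2, the TGF-beta 2 ligand, rose by 0.45 in MDA-MB-231 and fell by 0.84 in MDA-MB-436. Among 22 Notch genes 6 were higher and 7 lower (59.09% called). HES1, a Notch target, had changes of -0.52 and 1.26. The receptor gene NOTCH1 went the other way in MDA-MB-436, from 138 to 151 CPM in control to 85.0 to 105 CPM in treated libraries.

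Most very long genes fell in MDA-MB-231. Of 392 protein-coding genes spanning at least 300 kb and at 1 CPM or more in each line, 257 fell and 25 rose in MDA-MB-231 (median -0.65), and 174 fell and 77 rose in MDA-MB-436 (median -0.23). The line difference was positive in 223 and negative in 54 (median 0.59), against 2689 and 3084 of all 11652 such genes of any span. In the 1887 genes of 100 to 300 kb the medians were -0.09 and -0.17, and in the 2127 genes under 10 kb they were 0.02 and 0.01. GRIK4, a kainate receptor subunit that spans 477.2 kb, is an extreme case and not typical of these genes. It fell in MDA-MB-231, but its median in MDA-MB-436 went up, and its line difference lies far above their median of 0.59. GRIK4 ran from 1.99 to 2.72 CPM (median 2.28) in control and from 0 to 0.209 CPM (median 0.0671) in treated MDA-MB-231 libraries. GRIK4 in MDA-MB-436 ran from 2.099 to 4.04 CPM (median 2.696) in control and from 3.36 to 5.48 CPM (median 4.28) in treated libraries. GRIK4 was almost lost in every treated library of MDA-MB-231, while the arms overlapped in MDA-MB-436, and the line difference was 5.37 ± 0.45 (SE; adjusted p = 4.05e-09) by edgeR. FRY, SLC25A21 and AKAP6, of 452.4, 494.4 and 508.4 kb, gave line differences of 4.62, 4.86 and 4.61.

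**Figure D4:**
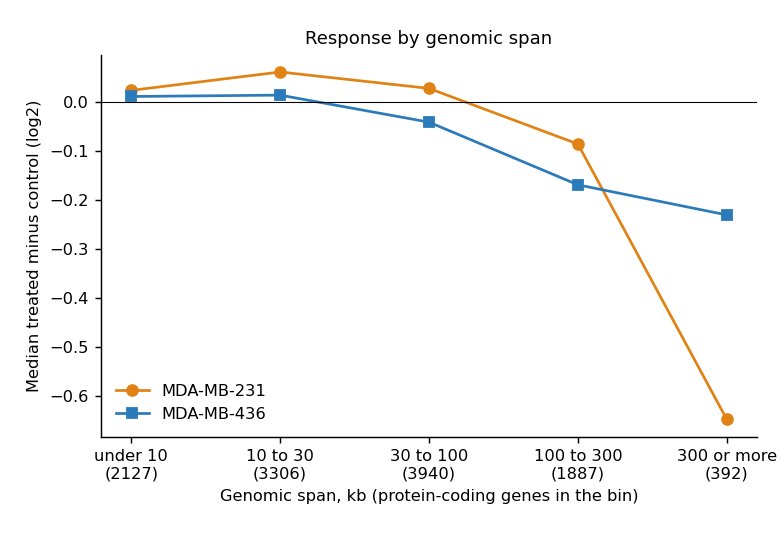
Median change under treatment (vertical axis, log2) of protein-coding genes at 1 CPM or more in each line, by genomic span (horizontal axis, kb), MDA-MB-231 in orange and MDA-MB-436 in blue. The longest bin of 392 genes lies lowest in both lines, at -0.65 (MDA-MB-231) and -0.23 (MDA-MB-436).

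The direction of a line difference was also set against the level of the gene in the untreated lines. To keep shared libraries out, the difference between the lines was taken from the NTshRNA controls and the line difference from the drug experiment. A gene was counted as moving toward the other line when these had opposite signs, whatever their sizes. Genes that went past the other line, such as H1F0, are therefore included, and the shares do not measure how many ended closer together. Of 1443 genes called in the drug experiment and at least 1 apart (log2) in the controls, 907 (62.9%) moved toward the other line, against 6872 of all 13230 genes (51.9%). Either condition alone gave less: 2145 of the 3848 genes at least 1 apart (55.7%) and 2583 of the 4753 called genes (54.3%) moved toward the other line. With DMSO controls and the shRNA experiment it was 900 of 1359 (66.2%), against 7039 of 13230 (53.2%), with 2246 of 3890 genes at least 1 apart (57.7%) and 2430 of 4249 called genes (57.2%). These shares were not tested. In the pooled values NF2, low in MDA-MB-436, and SNAI1 and IFIT2, low in MDA-MB-231, moved this way, as did IL7R, low in MDA-MB-231. CXCL8 and GADD45A, also low in MDA-MB-231, moved further apart, with line differences of 1.63 and 2.49.

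Line differences were also tested in the shRNA libraries and in the drug libraries alone. In the shRNA experiment 4873 genes (19.7%) were called, 2457 with a positive (9.94%) and 2416 with a negative line difference (9.77%). In the drug experiment there were 5508 (22.3%), 2910 positive (11.8%) and 2598 negative (10.5%), and these experiments share no library. Called in both were 3506 genes, 71.95% of the shRNA calls and 63.65% of the drug calls, and 3501 of them had the same sign. Across the 13230 genes at 1 CPM in each line the line differences were correlated at r = 0.689 and rho = 0.745, and over all 24719 genes tested at r = 0.354 and rho = 0.465. No gene (0%) differed between the experiments in its line difference by edgeR (smallest adjusted p = 0.0897; 1759 genes at an unadjusted p under 0.05), while DESeq2 called 85 and limma voom 2. H1F0 had line differences of 3.13 under the hairpin label and 3.22 under the drug, HSPA1A -1.63 and -1.62, IFIT2 -1.05 and -1.33, and EGR1 3.07 and 3.16. In MDA-MB-231 the libraries labelled MDM2shRNA and PROTAC correlated with each other (median r = 0.9941) as closely as libraries of 1 labelled group (0.9942), and in MDA-MB-436 the medians were 0.9914 and 0.9933. With MDM2 RNA not shown to be lower under the hairpin label, these values cannot tell whether the labels stand for separate experiments, and the shared calls are given as a description and not as replication.

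**Figure D5:**
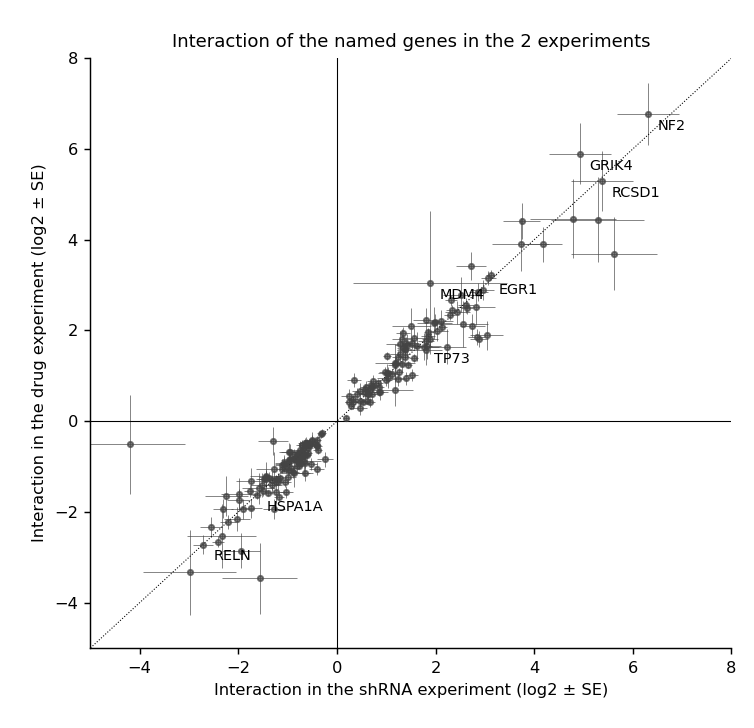
Line difference in the shRNA experiment (horizontal axis, log2) against that in the drug experiment (vertical axis, log2) for 215 named genes at 1 CPM or more in each line, with bars of 1 SE, and 2 genes beyond 8 off the axes. The points lie along the dotted line of equal values, and since the extremes were named for having the same sign in both experiments, that they share a sign is no result.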

How the data were processed

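RNA was sequenced in 24 libraries of 2 established lines. Per the labels' protocols, TRIzol was used for RNA, and GENEWIZ prepared the libraries (NEBNext Ultra II) and ran them on an Illumina HiSeq. Tools named in the submitters' processing notes are HISAT2, StringTie, edgeR and cutadapt 2.4, on GRCh38. What each did, and the strand setting of the count step, are not given in the sources used here. The deposited values are counts per Ensembl gene (60675 per library, all whole numbers), and 57055 identifiers matched GENCODE 29 (99.934% of counts).

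Genes were kept by filterByExpr over the 8 groups, scaled by TMM and fitted with edgeR 4.0.16 in R 4.3.3 (quasi-likelihood, 6 coefficients, 18 residual degrees of freedom), with Benjamini-Hochberg adjustment at 0.05 over 24719 genes. The shRNA and drug line differences and their contrast came from a model of 8 group means (16 residual degrees of freedom). CPM use the scaled library sizes, and SEs were taken from the F statistic. A class records which line passed by itself. The number of libraries limits the precision. In simulated counts of 23899 genes, line differences were planted in MDA-MB-436 only. Of 61 planted at 1.5-fold, 64 at 2-fold and 75 at 4-fold, 42.6%, 70.3% and 93.3% were recovered, and 10 of 151 calls were false. Far fewer genes were changed there than the 7749 called in the data. These shares therefore do not give the recovery of the fit reported here. Named genes were MDM2, MDM4, TP73 and CDKN1A, the extremes of each class and sign at 1 CPM or more in each line, the extremes of low genes, and up to 4 called members of each of 46 lists with the smallest p; other list members are given where their list is described and were chosen after their values were seen. Values of some list members are not reported here. Members and lists were chosen with earlier results of these data known. Alternatives were other scalings, filters, tools (DESeq2 1.42.0, limma 3.58.1 voom), a stricter threshold, a replicate block and leaving out each library.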

Additional observations from a re-analysis of the deposited data

Results flagged for a closer look

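Each result here was singled out because a test of the difference between the lines passed, edgeR's quasi-likelihood test with Benjamini-Hochberg adjustment at 0.05. Groups of 3 libraries were not tested for outlying libraries, and all deposited columns were used. The counts were 4045 genes with a positive and 3704 with a negative line difference, and 1156 genes that changed in opposite directions. Of single genes, the line difference was -0.77 for MDM2, 1.71 for TP73 and 1.23 for CDKN1A. It was 3.18 for H1F0, 6.49 for NF2, 1.39 for MCM5 and 3.12 for EGR1, and it was -1.63 for HSPA1A and -1.19 for IFIT2. MDM2 is the weakest of these: neither line passed by itself, and it did not pass at an adjusted p of 0.01.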

How the results depend on the processing

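No line difference called both as reported and under an alternative changed sign. The balance of directions did turn: without the MDA-MB-436 PROTAC replicate 2, 3788 line differences were positive and 3797 negative, and with RLE scaling 3068 genes rose and 2974 fell in MDA-MB-231. Leaving out 1 library at a time gave 7330 to 8052 called line differences, and 6 of the named genes lost the call in at least one of the 24 settings and MDM4 gained it once. Replicate numbers did not pair the samples: deviations of same-numbered libraries correlated at -0.154 to 0.0848, and with a replicate block within line 7485 genes were called, 7282 of them shared (93.97%). With library totals only, 3067 genes fell in MDA-MB-436.

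Restricting the test to genes whose exons overlap no other gene left 13275 genes to test instead of 24719. The counts here thus have a smaller base and are not to be read as lost results. The test called 4071 line differences (2059 positive, 2012 negative). Within lines, 1661 genes were up and 1585 down in MDA-MB-231, and 2749 up and 2537 down in MDA-MB-436. Line differences called were 2620 in the shRNA and 2952 in the drug experiment, with 1 between them. Classes then held 624 opposite, 631 unequal, 728 seen in MDA-MB-231 only and 1922 in MDA-MB-436 only. List counts also rest on fewer members, whose numbers and called shares are not reported here. Negative line differences numbered 11 heat shock, 13 interferon, 11 NRF2, 11 proteasome, 3 sterol, 7 fatty acid, 6 glycolysis and hypoxia and 4 endoplasmic reticulum members. Positive ones numbered 11 ATF4, 7 p53-family and 0 noncoding RNA members. With all genes, the endoplasmic reticulum list had 10 negative and 3 positive line differences among 27 tested (48.15% called, near the 47.6% of expressed genes). Noncoding RNAs had 2 members left to test, with a median of -1.14 instead of 0.39. With protein-coding genes only, 0 noncoding RNA members remained by construction.

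At an adjusted p of 0.01 there were 641 opposite and 606 unequal genes, 3105 calls in the shRNA and 3538 in the drug experiment, 9 histones and 11 glycolysis and hypoxia genes. Between the experiments, where edgeR called 0, DESeq2 called 85 and voom 2. Leaving out 1 library gave 0 to 26 there (26 without the MDA-MB-436 PROTAC replicate 2), and leaving out PROTAC replicate 3 and NTshRNA replicate 3 of MDA-MB-436 together, chosen after seeing the data, gave 3. The cause of these shifts was not tested.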
